A study of Mus musculus with 78 samples.

Results

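A set of 10 genes of the primitive streak and early mesoderm, out of the 54446 gene IDs of the expression tables, were followed by name through the RNA measurements of mouse embryonic stem cells (mESCs) that lose TRIM28. TRIM28 is the co-repressor that keeps endogenous retroviruses (ERVs) silent. The genes were T (Brachyury), Mixl1, Eomes, Gsc, Mesp1, Mesp2, Fgf8, Tbx6, Evx1 and Hand1, each found by its gene name and 1 gene ID. In the embryo, the primitive streak is the site at which epiblast cells leave the epithelium and become mesoderm and endoderm. WNT, Nodal and BMP signals induce it, the T-box factors T, Eomes and Tbx6 and the homeobox factors Mixl1, Gsc and Evx1 act in streak cells and their descendants, and FGF8 is needed for cells to move away from it. The basic helix-loop-helix factors mark what comes later: Mesp1 the earliest cardiac mesoderm, Mesp2 the segmenting somites, and Hand1 the lateral and extraembryonic mesoderm, the heart and also trophoblast. Undifferentiated ESCs usually hold little RNA of these genes.

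The cells were V6.5 mESCs in which endogenous Trim28 carries an FKBP degradation tag (the tagged line), so that the ligand dTAG-13 at 500 nM removes the protein. The RNA-seq time course had 3 libraries each of DMSO vehicle and of dTAG-13 for 2, 6, 24 and 96 h. The titles of the DMSO libraries give 0 h, and their treatment notes say that the vehicle was on the cells for 24 h. The 96 h cells therefore had no vehicle control of their own duration. TT-SLAM-seq, which captures RNA labelled with 4-thiouridine in a short pulse (nascent RNA), had 3 libraries each of DMSO and of dTAG-13 for 2, 6 and 24 h. Further RNA-seq groups of 3 were the untagged and untreated parental V6.5 line, neural progenitor cells (NPCs) of V6.5 strain given DMSO, and a line carrying doxycycline (Dox) inducible hairpins against ERV RNAs (shERV line), given DMSO, dTAG-13, or dTAG-13 with Dox. The labels of all 3 shERV groups also state a Dox pretreatment, so the groups were taken from the sample titles. These shERV libraries were made from rRNA-depleted total RNA, the time course from captured mRNA. MED23, a subunit of the Mediator complex, and RNA polymerase II (RNAPII) were mapped by ChIP-seq in 2 libraries per group, and the histone marks H3K27Ac and H3K9me3 in 3, in cells given DMSO or dTAG-13 for 24 h. The tagged line came from picked single colonies. All ESCs had been grown on feeder fibroblasts. The methods of the study state that these were removed before RNA-seq of mESCs, with no line set apart, and the culture notes in the labels say so for the tagged line and do not mention it for the shERV and parental lines. The study calls its RNA-seq and TT-SLAM-seq replicates biological. In other assays it uses this term for separate wells of a plate, and whether each sequenced library came from its own culture is not given in the sources used here, so p-values measure the spread between these libraries. Embryo single-cell and Hi-C data were not used here.

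Relative sequencing depth of the RNA-seq libraries, from the read coverage of genes well expressed in every library, lay between 0.281 and 1.52, and the lowest was 1 of the 24 h libraries. The nascent libraries held 5739708 to 21327378 reads in genes, and both ends of this range were 24 h libraries. Trim28 mRNA was 622 to 626 TPM (transcript abundance scaled to transcript length and library size) in DMSO and 185 to 204 TPM after 96 h, but dTAG-13 acts on the protein, so this level does not check the degradation itself. ESC markers (6 genes, such as Pou5f1 and Nanog) summed to 1745 to 1814 TPM in DMSO. In NPCs the 6 neural markers summed to 3320 to 3364 TPM, against 66.3 to 67.5 TPM in DMSO-treated ESCs.

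The members did not move in 1 direction after TRIM28 degradation, and neither did genes as a whole. At 24 h 42.9% of all genes tested were called higher and 25% lower, and of the 7 members tested 2 and 2. In the time course, Fgf8 and Tbx6 mRNA rose 5.04-fold and 3.92-fold by 24 h, while Eomes and Hand1 fell. By 96 h Tbx6 was back near its DMSO level, Fgf8 had come down in part, and Hand1 had risen 8.80-fold over DMSO to the highest level of any member in any ESC group. T, Mixl1 and Fgf8 were higher at 6 h by 1.62-fold to 1.68-fold, though the calls of T and Mixl1 were lost without certain single libraries. T, the gene most used to mark a streak, was not called at 24 or 96 h, and Mesp1 and Gsc stayed low.

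The promoters shown are those with the strongest MED23 peaks among the members (Eomes, T, Evx1 and Gsc) and that of Tbx6, the member with an H3K27Ac peak at its start. Each runs from 250 bases before the RefSeq gene start to 50 bases from it, 5′ to 3′ on the gene's strand, from RefSeq on GRCm38.p6. Capitals mark the matched motifs.
Eomes, chr9:118477939-118478238, + strand: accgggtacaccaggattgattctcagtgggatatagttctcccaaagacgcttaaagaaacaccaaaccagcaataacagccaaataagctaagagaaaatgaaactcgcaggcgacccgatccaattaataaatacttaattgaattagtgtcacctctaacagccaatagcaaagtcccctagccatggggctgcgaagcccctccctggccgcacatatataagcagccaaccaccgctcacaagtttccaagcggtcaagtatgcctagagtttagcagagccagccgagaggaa
T, chr17:8434173-8434472, + strand: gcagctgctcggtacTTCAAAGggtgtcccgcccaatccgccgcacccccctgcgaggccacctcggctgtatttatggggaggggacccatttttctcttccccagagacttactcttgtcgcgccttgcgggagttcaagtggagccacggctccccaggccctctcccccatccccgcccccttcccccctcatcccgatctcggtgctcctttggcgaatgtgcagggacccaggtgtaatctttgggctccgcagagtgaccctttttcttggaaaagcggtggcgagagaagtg
Evx1, chr6:52313248-52313547, + strand: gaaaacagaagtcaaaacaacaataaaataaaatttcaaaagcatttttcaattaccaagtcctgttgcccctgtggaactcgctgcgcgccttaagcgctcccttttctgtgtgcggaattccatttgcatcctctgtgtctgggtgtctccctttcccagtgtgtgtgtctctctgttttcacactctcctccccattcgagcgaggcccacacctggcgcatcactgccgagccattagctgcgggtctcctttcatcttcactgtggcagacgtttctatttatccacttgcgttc
Gsc, chr12:104473187-104473486, - strand: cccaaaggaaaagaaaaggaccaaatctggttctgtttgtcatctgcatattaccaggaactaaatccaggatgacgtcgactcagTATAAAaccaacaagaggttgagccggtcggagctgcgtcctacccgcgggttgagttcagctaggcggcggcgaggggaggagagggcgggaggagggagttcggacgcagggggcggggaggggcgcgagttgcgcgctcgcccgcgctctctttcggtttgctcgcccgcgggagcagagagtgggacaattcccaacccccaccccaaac
Tbx6, chr7:126781233-126781532, + strand: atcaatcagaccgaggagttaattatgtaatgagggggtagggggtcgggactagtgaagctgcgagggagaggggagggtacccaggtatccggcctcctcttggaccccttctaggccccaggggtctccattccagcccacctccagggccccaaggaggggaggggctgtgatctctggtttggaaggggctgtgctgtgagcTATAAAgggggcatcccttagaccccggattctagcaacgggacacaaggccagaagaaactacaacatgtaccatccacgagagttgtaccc
Promoters of 7 members were matched in the RefSeq table; Mixl1, Fgf8 and Hand1 were not. On both strands, 4 motifs were searched: the T-box letters TCACACCT, the TCF/LEF letters CTTTGAA and CTTTGAT, which share their first letters, and the TATA letters TATAAA. T held CTTTGAA on the opposite strand at -235 from the gene start, Gsc held TATAAA at -164 and Tbx6 held TATAAA at -43. Mesp1, not printed, held both TCF/LEF words, at -73 and -31, and the T-box word at 5 bases past the start. Eomes, Mesp2 and Evx1 held none of the letters in this window. Of all 32851 promoters in the table, 1.28% held the T-box word, 5.14% CTTTGAA, 3.73% CTTTGAT and 13.6% TATAAA. The matches did not overlap. CpG dinucleotides numbered 25 at Gsc, 17 at T, 12 at Evx1, 10 at Eomes and Mesp2, 7 at Tbx6 and 4 at Mesp1, where all promoters had a median of 7 (quartiles 3 and 20).

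Levels in this section are TPM from the mRNA libraries, which are scaled to transcript length and can be compared between genes. Differences are log2 of (TPM + 0.5), tested with limma across all 17922 genes that reached 1 TPM in at least 3 of the 15 libraries, with Benjamini-Hochberg adjustment. A gene was called at an adjusted p under 0.05. Of the 10 members, 7 passed this minimum, and Gsc, Mesp1 and Evx1 did not. After 2 h, 8.25% of all genes tested were called higher and 7.02% lower, and of the 7 members 0 and 1. After 6 h these shares were 18.4% and 15.5%, with 3 and 0 of the members. The 24 h comparison gave 42.9% and 25% of all genes, with 2 and 2 of the members. The 96 h comparison gave 42.9% and 37.4%, with 2 and 1 of the members. From the first to the last time point, the members' median differences were -0.12, 0.13, -0.06 and -0.05, where those over all genes were -0.02, 0.03, 0.13 and 0.05. All 4 comparisons share the DMSO libraries. Centring every library on its median instead shifts all differences by -0.09 in the 6 h comparison, by -0.29 after 24 h of dTAG-13 and by -0.28 after 96 h. The shares of all genes higher and lower are then 11.3% and 26.3%, 25.9% and 44.1%, and 33.7% and 48.6%, with 3 and 1, 2 and 3, and 2 and 3 of the members. In these bulk samples, fewer cells of a type and less RNA per cell cannot be told apart.

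**Figure D1:**
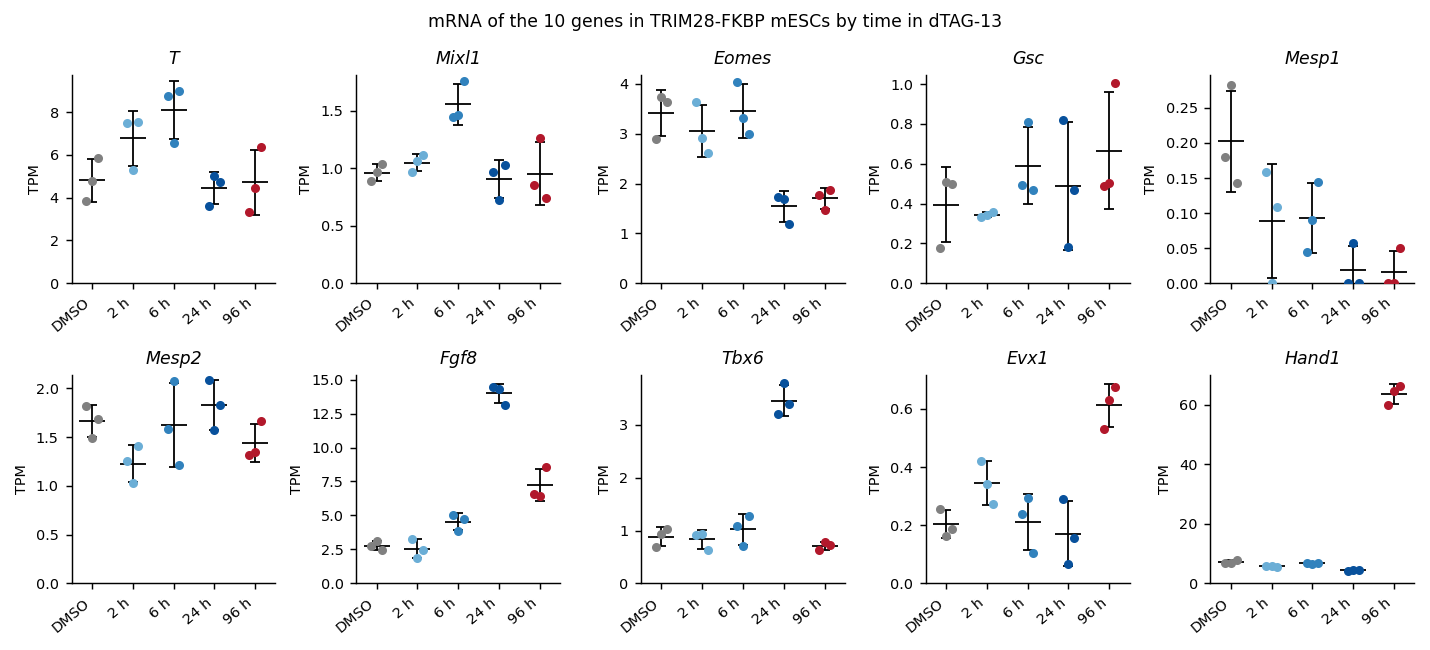
mRNA levels (TPM, vertical axes from 0) of the 10 genes in tagged cells given DMSO or dTAG-13 for 2, 6, 24 and 96 h; points are libraries, bars the mean and its SD (n = 3). Fgf8 and Tbx6 peaked at 24 h, at 13.1 to 14.5 and 3.20 to 3.79 TPM, and Hand1 stood at 60.1 to 66.5 TPM at 96 h.

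Fgf8 (chr19:45736798-45742915, - strand in mm10), the only secreted ligand of the set, was at 2.72, 3.13 and 2.46 TPM in the 3 DMSO libraries. The 2 h libraries read 3.28, 1.90 and 2.46 TPM, the 6 h libraries 5.02, 3.87 and 4.77 TPM. At 24 h it was at 14.5, 14.3 and 13.1 TPM. The 2 h libraries overlapped the DMSO libraries, while every 6 h library was above all of them and every 24 h library above every 6 h library. The rise was 0.62 ± 0.15 (log2, SE, limma, adjusted p = 0.00703) at 6 h and 2.15 ± 0.15 (adjusted p = 2.82e-08) at 24 h, where only 114 of the 17922 genes had a higher difference. At 96 h the libraries read 6.59, 6.46 and 8.58 TPM. This was still 1.23 ± 0.15 above DMSO (limma, adjusted p = 3.64e-06) and lower than at 24 h (difference of -0.92 ± 0.15, limma, adjusted p = 7.28e-05), with no overlap between the groups in either case.

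Tbx6 (chr7:126781483-126785560, + strand), which directs cells towards paraxial mesoderm, had a similar peak but no later remainder. In DMSO it was at 0.685, 0.941 and 1.02 TPM. The 2 h libraries read 0.923, 0.942 and 0.633 TPM, the 6 h libraries 1.08, 0.708 and 1.28 TPM, and neither group was separate from DMSO. At 24 h the libraries were at 3.20, 3.79 and 3.40 TPM, all far above every earlier library (rise of 1.52 ± 0.16, limma, adjusted p = 9.82e-07). At 96 h they were back at 0.636, 0.779 and 0.721 TPM. That group overlapped DMSO (difference of -0.18, 95% interval -0.52 to 0.15, limma, adjusted p = 0.289; -0.46 and called lower with every library centred on its median) and differed from 24 h by -1.71 ± 0.16 (adjusted p = 1.34e-07).

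T (chr17:8434423-8442496, + strand), needed for posterior mesoderm and the notochord, changed early and briefly. The DMSO libraries were at 3.83, 4.78 and 5.85 TPM. At 2 h they were at 7.50, 5.30 and 7.56 TPM, a difference of 0.46 that was not called (SE 0.21, limma, adjusted p = 0.178). At 6 h they were at 8.74, 6.54 and 9.003 TPM, above every DMSO library (rise of 0.70 ± 0.21, limma, adjusted p = 0.0224). The call was lost without DMSO replicate 1 or 2, without 6 h replicate 1 or 3, and with no filter on low values, where the rise was 0.56 to 0.70. At 24 h T was at 3.62, 5.02 and 4.75 TPM. By 96 h it was at 3.32, 4.45 and 6.36 TPM. Both groups lay across the DMSO range, with differences of -0.09 (95% interval -0.55 to 0.37) and -0.05 (-0.51 to 0.41).

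Eomes (chr9:118478212-118486132, + strand), a T-box factor of definitive endoderm and cardiac mesoderm that is also used in trophoblast and cortical progenitors, went the other way. It was at 2.90, 3.74 and 3.63 TPM in DMSO. The 2 h libraries lay between 2.62 and 3.64 TPM and the 6 h libraries between 2.99 and 4.05 TPM, both across the DMSO range. At 24 h the libraries were at 1.73, 1.70 and 1.19 TPM. Those of 96 h were at 1.77, 1.47 and 1.87 TPM. Each of these was below every DMSO library. Eomes fell by 0.95 ± 0.15 at 24 h (limma, adjusted p = 6.72e-05) and by 0.83 ± 0.15 at 96 h (adjusted p = 0.000143), and 96 h did not separate from 24 h (difference of 0.12, 95% interval -0.21 to 0.44).

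Hand1 (chr11:57828705-57832818, - strand) had the smallest SE among the members tested and moved in both directions. In DMSO it was at 7.00, 6.89 and 7.83 TPM. It was at 5.80, 5.73 and 5.62 TPM at 2 h (fell by 0.31 ± 0.06, limma, adjusted p = 0.00296), and all were below every DMSO library. At 6 h, with 6.82, 6.56 and 6.71 TPM, it was again below every DMSO library, but by a difference that was not called (-0.10 ± 0.06, limma, adjusted p = 0.195). At 24 h it was at 4.26, 4.40 and 4.41 TPM, the lowest of the time course (fell by 0.67 ± 0.06, adjusted p = 1.94e-07). At 96 h the libraries stood at 60.1, 64.5 and 66.5 TPM. This was 3.05 ± 0.06 above DMSO (limma, adjusted p = 6.92e-15) and 3.72 ± 0.06 above 24 h (14.6-fold, adjusted p = 2.71e-15), where only 45 of 17922 genes had a higher difference.

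Other cell type markers moved with Hand1 at 96 h, when 42.9% of all genes were called higher than in DMSO and 37.4% lower. The feeder fibroblast list (14 genes) summed to 412 to 423 TPM in DMSO, 353 to 421 TPM at 24 h and 4006 to 4168 TPM at 96 h, and 13 of 13 tested genes were higher at 96 h than in DMSO, Tagln and Acta2, genes of contractile cells, with the highest levels. The trophoblast list (11 genes) summed to 59.1 to 63.7 TPM in DMSO and 292 to 311 TPM at 96 h, with 5 of 8 tested genes higher and 2 lower. The 8 tested genes had a median difference of 1.47, against 0.05 over all genes. Prl3d1 and Tpbpa were not among those tested: Prl3d1 was at 0 in every DMSO and 96 h library, and Tpbpa was at 0 in every DMSO library and at most 0.153 TPM at 96 h. The extraembryonic endoderm list (10 genes) summed to 76.4 to 86.6 TPM in DMSO and 348 to 359 TPM at 96 h, with 7 of 9 higher and 2 lower. The ESC markers summed to 188 to 216 TPM at 96 h, and 6 of 6 were lower. In bulk RNA the feeder list cannot tell feeder cells left in the culture from other cells that make the same RNAs. The part of these lists in the 96 h result for Hand1 was not tested. At 24 h, when Fgf8 and Tbx6 were at their peak, ESC markers summed to 969 to 1058 TPM, below every DMSO library, with 1 of 6 genes higher and 5 lower. Trophoblast markers then summed to 60.3 to 63.9 TPM, with 2 of 8 tested genes higher and 4 lower, and extraembryonic endoderm markers to 81.1 to 87.1 TPM, with 3 of 9 higher and 3 lower. Of the feeder markers 6 of 13 were higher and 4 lower at that time. Of all genes, 42.9% were called higher and 25% lower at 24 h. The part of these lists in the 24 h results was not tested.

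The remaining members were low. Mixl1 (chr1:180693043-180697034, - strand), a homeobox gene of the streak, was at 0.886, 0.964 and 1.03 TPM in DMSO. The 6 h libraries read 1.44, 1.46 and 1.76 TPM, with no overlap (rise of 0.49 ± 0.14, limma, adjusted p = 0.0158). This call was lost without DMSO replicate 1 or 6 h replicate 3, where the rise was 0.45 and 0.42. At 24 and 96 h Mixl1 was at 0.723 to 1.26 TPM and was not called. Mesp2 (chr7:79810727-79813439, + strand) was at 1.82, 1.50 and 1.68 TPM in DMSO and between 1.03 and 2.09 TPM in all treated libraries, and was not called at any time (limma, adjusted p = 0.17 to 0.853). Its neighbour Mesp1 (chr7:79792241-79793788, - strand), whose start lies 16939 bases away, was at 0.143 to 0.283 TPM in DMSO and at most 0.0578 TPM at 24 and 96 h. Every 24 h and 96 h library of Mesp1 was below every DMSO library, though most of these were at 0 and the gene was under the minimum for the test. Evx1 (chr6:52313498-52318378, + strand), of the posterior streak, was at 0.163 to 0.257 TPM in DMSO, at 0.272, 0.343 and 0.420 TPM at 2 h and at 0.531, 0.629 and 0.676 TPM at 96 h. Both of these groups were above every DMSO library, while those of 6 and 24 h overlapped DMSO, and the gene was also under the minimum. Gsc (chr12:104471209-104473330, - strand), of the anterior streak and organizer, ranged from 0.175 to 1.01 TPM over the time course, with all groups overlapping DMSO. With no minimum, Evx1 was called higher at 96 h (0.66 ± 0.13, limma, adjusted p = 0.000893) but not at 2 h (0.26 ± 0.13, adjusted p = 0.359), Mesp1 lower at 24 h (-0.43 ± 0.10, adjusted p = 0.00565) and 96 h (-0.44 ± 0.10, adjusted p = 0.00364), and Gsc at neither.

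Between 24 and 96 h, 37.4% of all genes were called higher and 42% lower. Of the 7 members tested, Hand1 was higher and Fgf8 and Tbx6 were lower, each over ranges that did not overlap. T, Mixl1, Eomes and Mesp2 differed between the 2 times by -0.26 to 0.12, none of them called.

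Nascent RNA was measured as FPKM, reads with a T-to-C conversion per kilobase of gene, scaled to library size, with introns counted in the gene length. All members were under the minimum of 0.5 FPKM in 3 libraries. Their values correspond to whole reads, so the 5 members with a mean of at least 5 reads (T, Eomes, Fgf8, Tbx6 and Hand1) were tested with limma voom over 20039 genes, a test chosen after seeing the data. Of those genes, 8.56% were called higher and 3.95% lower after 2 h. The shares were 9.03% and 4.92% after 6 h. They reached 19.5% higher and 19.5% lower after 24 h. No member was called at either early time (unadjusted p under 0.05 in 0 members), while Fgf8 and Tbx6 were called higher in the last comparison.

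**Figure D2:**
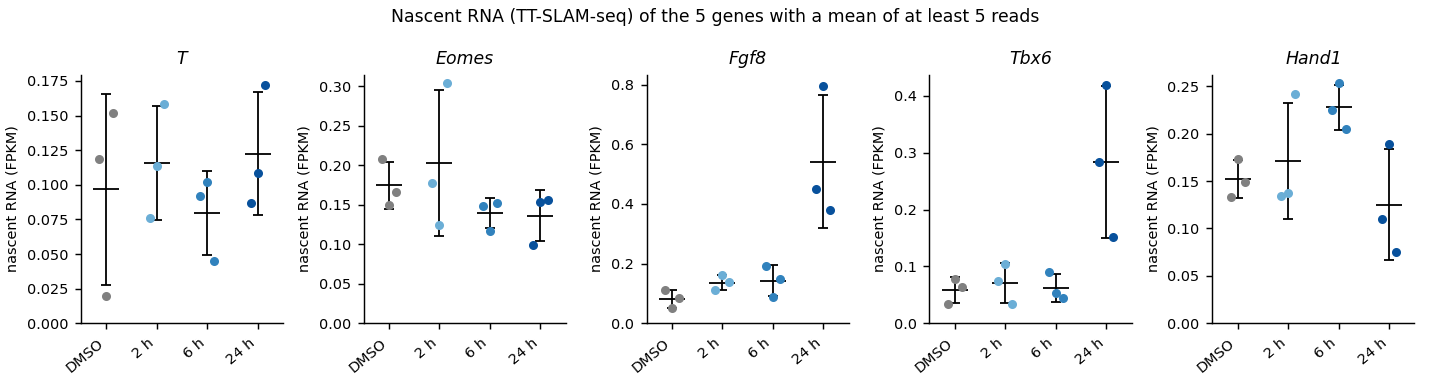
Nascent RNA (FPKM, vertical axes from 0) of 5 members in cells given DMSO or dTAG-13 for 2, 6 and 24 h; points are libraries, bars the mean and its SD (n = 3). Every 24 h library of Fgf8 (0.378 to 0.796 FPKM) and Tbx6 (0.151 to 0.418 FPKM) was above every DMSO library.

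Fgf8 had 5, 4 and 6 reads in the DMSO libraries. It had 11, 14 and 12 after 2 h, then 19, 10 and 15 after 6 h. The 24 h libraries gave 67, 100 and 15 reads, the last from the shallowest library. In FPKM it was at 0.112, 0.0519 and 0.086 in DMSO and at 0.451, 0.796 and 0.378 at 24 h. The groups did not overlap, and the rise was 2.38 ± 0.49 (log2, limma voom, adjusted p = 0.000675). Without each library in turn it was 2.04 to 2.58, called each time.
Tbx6 had 1, 4 and 3 reads in DMSO and 28, 35 and 4 at 24 h, or 0.0336, 0.0779 and 0.0645 FPKM against 0.283, 0.418 and 0.151 FPKM. The rise was 1.76 ± 0.57 (limma voom, adjusted p = 0.0189), but the adjusted p was 0.0507 to 0.0687 without DMSO replicate 1, 2 or 3 or 24 h replicate 2, with rises of 1.48 to 1.94. Tbx6 passed the minimum mean of 5 reads only through its 24 h libraries (mean of 22.3 reads, against 2.67 in DMSO and 4.33 at 2 h and 6 h). Its call therefore rests on the group where it was high. Fgf8 and Tbx6 thus had higher values in nascent RNA and in mRNA at 24 h, in separate libraries, with this limit for Tbx6.
Eomes had 12, 15 and 15 reads in DMSO and 19, 25 and 8 at 24 h, or 0.208, 0.150 and 0.166 FPKM against 0.0989, 0.154 and 0.156 FPKM, a difference of -0.78 (95% interval -1.60 to 0.03, limma voom, adjusted p = 0.119). Hand1 had 4, 9 and 7 reads in DMSO and 11, 16 and 2 at 24 h (difference of -0.63, 95% interval -1.63 to 0.38). T had 7, 2 and 14 reads in DMSO and 10, 13 and 18 at 2 h (difference of 0.75, 95% interval -0.50 to 1.99). None of these 3 differences was called, and the 3 intervals include 0. The other 5 members had FPKM of at most 0.224 in any library.

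MED23 peaks at the gene starts were compared next. A gene was counted as having a peak when every library of the group listed one within 1 kb of its start, and the strength is the peak caller's fold enrichment over local background in that library. In DMSO, MED23 was listed at 7 of the 10 members (T, Eomes, Gsc, Mesp2, Fgf8, Evx1 and Hand1), against 58.6% of the 21938 protein-coding genes. Eomes had the strongest, at 44.6 and 43.2 in the 2 libraries, above 99% of the genes with a peak, although its mRNA was at only 2.90 to 3.74 TPM. T followed with 21.2 and 20.4 (above 94.1%), Evx1 with 12.7 and 14.5 (above 82.8%) and Gsc with 10.4 and 8.40. Mesp2, Fgf8 and Hand1 were near the low end, at 2.94 to 5.06.

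After 24 h of dTAG-13, MED23 remained listed at Eomes (6.78 and 5.18), Gsc (4.51 and 4.81) and Evx1 (3.97 and 3.93), against 15.5% of all genes. T, Mesp2, Fgf8 and Hand1 had none in either library, as did 65.8% of all genes with a DMSO peak. The ratio of 24 h to DMSO strength was 0.136 at Eomes, 0.291 at Evx1 and 0.496 at Gsc, where genes with a peak in all 4 libraries had a median of 0.354. The peak lists shrank from 63045 and 58925 peaks to 15335 and 14551, and the part of this in the members' losses was not tested. With the same number of peaks taken from each library, T, Eomes, Gsc and Evx1 had a DMSO peak (4 members, against 23.7% of genes), and Eomes, Gsc and Evx1 had one at 24 h (3 members, against 14.4% of genes). MED23 was no longer listed at Fgf8 at the time its mRNA was at its peak, nor at T, whose mRNA was not called at that time. The Fgf8 peaks in DMSO were weak (3.91 and 5.06), and with equal numbers of peaks Fgf8 had none in either group. Each group had 2 libraries and no test was made.

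**Figure D3:**
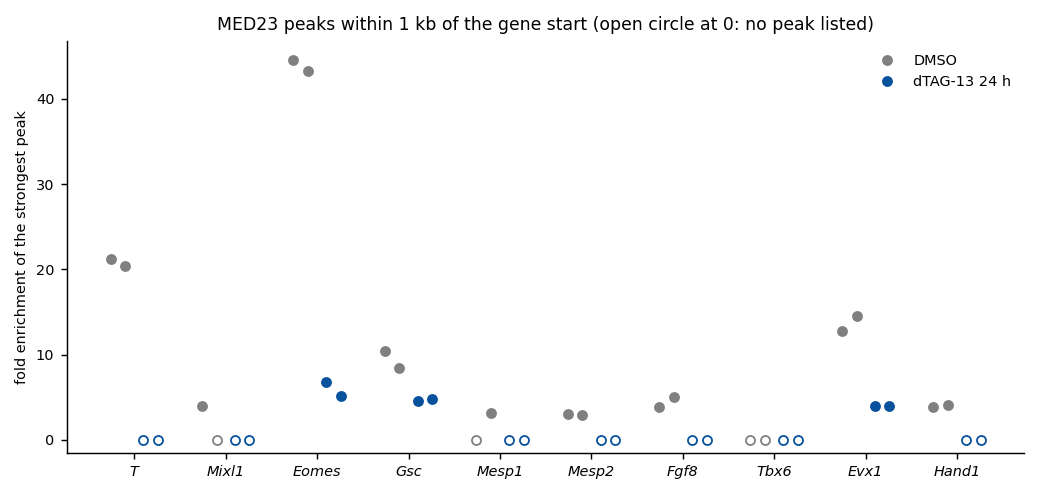
Fold enrichment (linear axis) of the strongest MED23 peak within 1 kb of each gene start, for 2 DMSO libraries (grey) and 2 libraries given dTAG-13 for 24 h (blue); open circles at 0 mean that no peak was listed. Eomes falls from 44.6 and 43.2 to 6.78 and 5.18, and T from 21.2 and 20.4 to no listed peak.

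The other ChIP-seq marks were sparse at the members. RNAPII was listed within 1 kb of no member in either group, against 39.7% of genes in DMSO and 20.1% at 24 h. H3K27Ac, a mark of active promoters and enhancers, was listed in all 3 DMSO libraries only at Tbx6 (2.49, 3.41 and 3.03), against 45.4% of genes. At 24 h Tbx6 had it in 1 of 3 libraries (4.60), the one with 117348 peaks where the others had 30259 and 45662, and 28.9% of all genes had it in all 3. H3K9me3, the mark laid down through TRIM28 and its partners, was listed only at Mesp2, in 1 library of each group (2.98 and 2.59), and no member had it in all 3, as against 1.81% of genes in DMSO and 0.401% at 24 h.

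The shERV line asks how the genes respond to degradation when hairpins against ERV RNAs are induced. It had no group given Dox without dTAG-13 and none with a control hairpin. Knockdown of ERV RNAs therefore cannot be told apart from Dox or hairpin induction as such, and ERV RNA levels were not examined here. In its fit of 16166 genes, 5 members passed the minimum (T, Mixl1, Eomes, Fgf8 and Hand1). For dTAG-13 against DMSO, 41.2% of all genes were called higher and 12.8% lower. For dTAG-13 with Dox against dTAG-13, 17.5% were higher and 29.3% lower, and for dTAG-13 with Dox against DMSO, 0.0495% were higher and 0.0124% lower. These comparisons share groups. With every library centred on its median the shares were 25.9% and 29.6%, 28.3% and 25.5%, and 0.0371% and 0.0433%, and the counts of members called were the same. Hand1 was at 11.1, 11.8 and 10.8 TPM in DMSO, 15.2, 14.8 and 14.4 TPM in dTAG-13 and 9.25, 10.7 and 10.2 TPM in dTAG-13 with Dox. The dTAG-13 libraries were above all others, with a rise of 0.38 ± 0.07 (limma, adjusted p = 0.00042) over DMSO and a difference of -0.54 ± 0.07 (adjusted p = 4.5e-05) with Dox against without. Feeder markers summed to 1384 to 1467, 2067 to 2268 and 1468 to 1509 TPM in the same groups, with 4 of 12 tested genes higher and 3 lower in dTAG-13 than in DMSO. Trophoblast markers summed to 58.9 to 65.0, 78.5 to 83.5 and 61.4 to 64.7 TPM, with 3 of 7 higher and 0 lower. ESC markers summed to 769 to 868, 391 to 399 and 822 to 838 TPM, with 6 of 6 lower in dTAG-13 than in DMSO and 6 of 6 higher with Dox than without. The part of these lists in the Hand1 result was not tested.

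Eomes was at 4.15, 4.23 and 4.80 TPM in shERV DMSO, 3.64, 3.08 and 3.12 TPM in dTAG-13 and 3.26, 3.52 and 3.36 TPM with Dox. It was lower in dTAG-13 than in DMSO (-0.37 ± 0.09, limma, adjusted p = 0.00508) and did not separate between dTAG-13 with and without Dox (0.04, 95% interval -0.16 to 0.24). Against DMSO, dTAG-13 with Dox was at -0.33 (95% interval -0.54 to -0.13), with an adjusted p of 0.2 in a comparison where 8 genes were called higher and 2 lower. In that comparison Hand1 was at -0.16 (95% interval -0.30 to -0.01), so 0 of 5 members were called and 2 had an unadjusted p under 0.05. Fgf8 was not called and was at 1.80, 1.80 and 2.67 TPM in DMSO, 1.64, 2.07 and 1.77 TPM in dTAG-13 and 2.30, 1.48 and 2.01 TPM with Dox, all overlapping (dTAG-13 against DMSO -0.14, 95% interval -0.50 to 0.21). Tbx6, under the minimum, was at 0.394 to 0.854, 0.259 to 0.636 and 0.513 to 0.824 TPM. T was at 4.42 to 6.83 TPM over the 9 libraries and was not called in any of the 3 comparisons, nor was Mixl1, at 0.656 to 1.26 TPM.

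The change at 24 h was then compared between the 2 lines in a fit of both lines (17653 genes). For the difference of the changes, shERV minus tagged, 26.2% of genes were called higher and 25.2% lower, and of the 7 members tested 2 were called higher and 2 lower, near these shares. With median centring the shares were 36.6% and 20.5%, with 3 and 2 of the members. Fgf8 differed by -2.29 ± 0.19 (limma, adjusted p = 2.4e-06) and only 50 genes had a lower difference. Tbx6 differed by -1.61 ± 0.28 (adjusted p = 0.000442), Hand1 by 1.06 ± 0.09 (adjusted p = 3.83e-06) and Eomes by 0.58 ± 0.18 (adjusted p = 0.0198). Tbx6 passed the minimum of 1 TPM in 3 libraries only through the tagged 24 h group (3.20 to 3.79 TPM). It was at most 1.02 TPM in the other groups of this fit, so its call rests on the group where it was high. Hand1 thus moved in opposite directions in the 2 lines, and Eomes fell in both. Line, library type (mRNA or total RNA) and feeder marker level differ together between the 2 experiments and cannot be told apart.

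**Figure D4:**
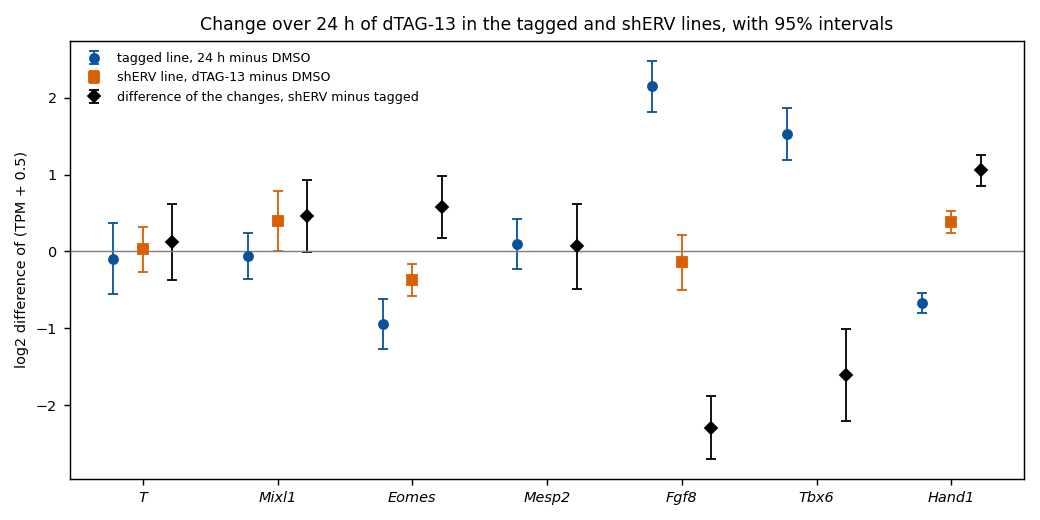
log2 differences of (TPM + 0.5), with 95% intervals, between dTAG-13 for 24 h and DMSO in the tagged line (circles) and the shERV line (squares), and the difference of the 2 (diamonds), for the 7 members tested in the tagged line; Mesp2 and Tbx6 were under the minimum in the shERV fit. Fgf8 lies at 2.15 in the tagged line and near 0 in the shERV line, and Hand1 lies at -0.67 and 0.38.

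Between lines, the tagged cells in DMSO held more of several members than the parental cells. In the fit of the tagged, parental and NPC libraries (17458 genes), 25% of genes were called higher and 41% lower in the parental line, and 0 and 3 of 5 members tested (41.8% and 26.9%, and 1 and 3 members, with median centring). Hand1 was at 0.13, 0.127 and 0.107 TPM in the parental line, against 6.89 to 7.83 TPM in the tagged line (59.7 times as much in the tagged line, difference of -3.64 ± 0.10, limma, adjusted p = 4.21e-09), and only 27 genes had a lower difference. T was at 0.307, 0.513 and 0.592 TPM, 10.2 times under the tagged line (-2.45 ± 0.16, adjusted p = 9.67e-07). Fgf8 was at 0.589, 0.97 and 0.955 TPM (-1.30 ± 0.16, adjusted p = 6.3e-05). Eomes, at 3.73 to 3.95 TPM, and Mesp2, at 1.34 to 1.44 TPM, were not called, though Eomes was called higher with median centring (0.36). In the same fit 6 of 6 ESC markers were higher in the parental line, where they summed to 3295 to 3318 TPM, and 8 of 8 trophoblast markers were lower, with a sum of 14.3 to 14.8 TPM. Of the feeder markers 10 of 13 were higher and 3 lower, though their sum was lower, at 249.9 to 254.9 TPM against 412 to 423 TPM in the tagged line. The part of these lists in the result was not tested. Trim28 mRNA also differed, at 1387 to 1418 TPM in the parental line against 622 to 626 TPM in the tagged line in DMSO. The part of this in the result was not tested. The parental cells were untreated, so the tag, the picked colony and the vehicle cannot be told apart. Neither can feeder removal, which the labels do not mention for the parental line.

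**Figure D5:**
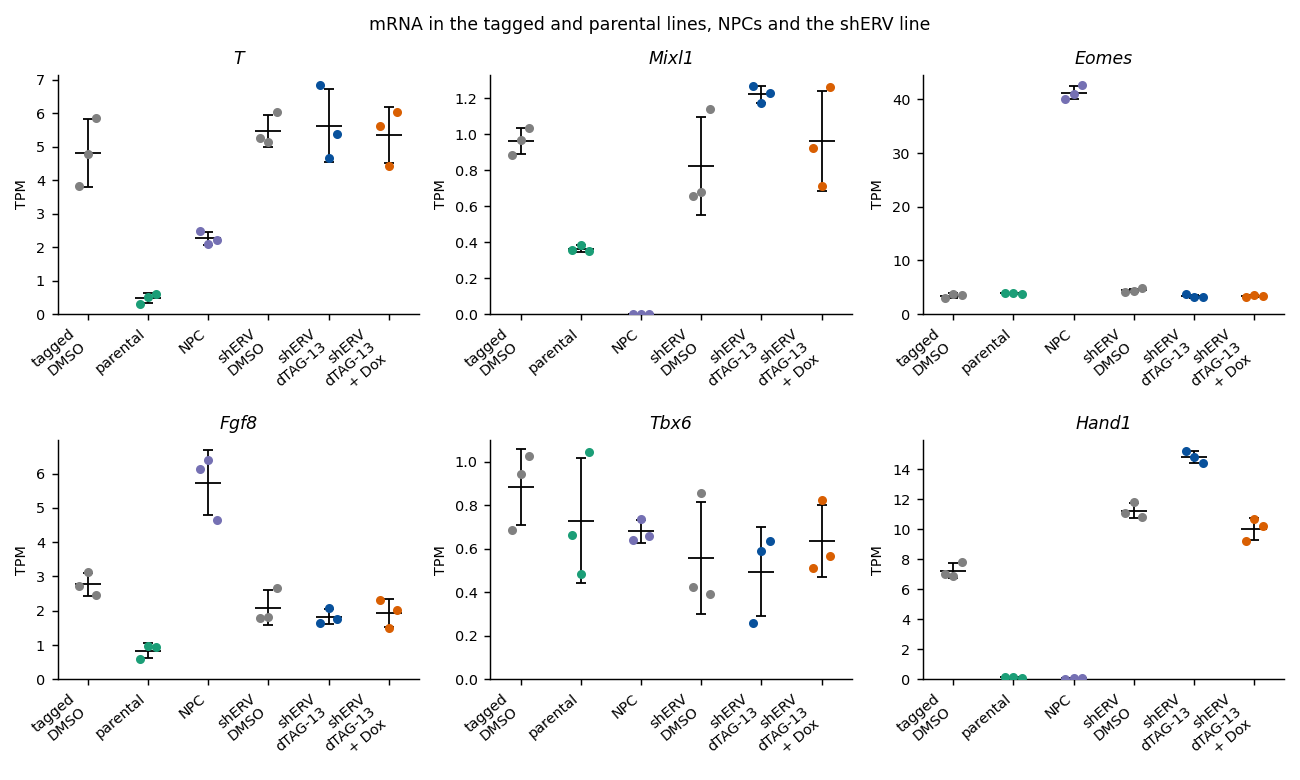
mRNA levels (TPM, vertical axes from 0) of 6 members in the tagged line in DMSO, the parental line, NPCs and the 3 shERV groups; points are libraries, bars the mean and its SD (n = 3), and the shERV libraries are total RNA. Eomes stands at 40.1 to 42.6 TPM in NPCs, Hand1 and T are at most 0.13 and 0.592 TPM in the parental line, and Hand1 is highest in shERV cells given dTAG-13 without Dox.

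In NPCs 49.5% of genes were called higher and 39.5% lower than in the tagged ESCs, and 2 and 3 of the 5 members tested (36.7% and 52% of genes, and again 2 and 3 members, with median centring). Eomes was at 40.1, 41.1 and 42.6 TPM, 12.1 times the ESC level (3.42 ± 0.08, limma, adjusted p = 1.59e-10) above every other library of the time course, shERV and parental groups. Fgf8 was at 6.14, 6.41 and 4.65 TPM (0.92 ± 0.16, adjusted p = 0.000298). T was lower, at 2.48, 2.09 and 2.21 TPM (-0.93 ± 0.16, adjusted p = 0.000319). Hand1 was at 0, 0.0599 and 0.113 TPM and Mesp2 at 0.249, 0.0181 and 0.224 TPM, both below every DMSO library of the tagged line (-3.80 ± 0.10 and -1.72 ± 0.14, adjusted p = 2.14e-10 and 1.23e-06). Mixl1 and Mesp1 were listed at 0 in all 3 NPC libraries.

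Other genes of the same programme were described from 4 lists. Of 13 signals and antagonists, 11 were tested in the time course. After 24 h 4 were higher and 4 lower, where 42.9% and 25% of all genes were, and after 96 h these numbers were 4 and 7, against 42.9% and 37.4%. The median difference of the list was -0.11 at 24 h and -1.13 at 96 h, against 0.13 and 0.05 over all genes. At 96 h Tdgf1, the Nodal co-receptor, went from a mean of 1048 to 89.5 TPM (-3.55 ± 0.07, limma, adjusted p = 6.66e-15) and Fgf17 from 22.1 to 3.67 TPM, while Wnt3, an inducer of the streak, went from 3.82 to 29.0 TPM (2.77 ± 0.11) and the BMP antagonist Nog from 2.89 to 28.4 TPM. Of 10 other streak transcription factors, 9 were tested. At 24 h 0 were higher and 6 lower, such as Cdx2 (from 1.19 to 0.308 TPM), with a median difference of -0.42. At 96 h 5 were higher, such as the WNT target Sp5 (from 12.4 to 39.0 TPM) and Snai1, a repressor of epithelial genes (from 5.85 to 26.7 TPM), and 4 lower, such as Otx2 (from 13.8 to 2.88 TPM) and Cdx4 (from 1.80 to 0.313 TPM), with a median difference of 0.52.

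Of 11 paraxial mesoderm genes, 6 were tested, with 1 higher and 3 lower after 24 h, and 3 of each after 96 h, and median differences of -0.34 and -0.43. Of all genes, 42.9% were higher and 25% lower after 24 h, and 42.9% and 37.4% after 96 h. Tcf15, a factor of paraxial mesoderm that ESCs also express, went from a mean of 69.3 TPM in DMSO to 14.8 TPM at 24 h (-2.19 ± 0.07, limma, adjusted p = 2.54e-11) and 1.28 TPM at 96 h, and the Notch ligand Dll1 from 7.36 to 1.08 TPM at 96 h. Foxc1 and Twist1 were higher at 96 h, at 6.83 TPM against 0.643 and 15.4 TPM against 4.13. All 13 genes of lateral, cardiac and blood mesoderm were tested, with 3 higher and 2 lower after 24 h. After 96 h 9 were higher and 3 lower, beside the same shares of all genes. Bmp2 went from 0.763 to 27.5 TPM at 96 h (4.48 ± 0.17, limma, adjusted p = 5.89e-12), the cardiac factor Nkx2-5 from 1.54 to 16.3 TPM, Foxf1 from 0.355 to 6.28 TPM and Hand2, the paralogue of Hand1, from 0.0572 to 2.95 TPM. The median difference of this list was 0.11 at 24 h and 1.04 at 96 h, the latter in the libraries with the feeder marker sums given above. Bmp2, Foxf1, Hand2 and Foxc1 had DMSO means under the minimum of 1 TPM. They passed it only through dTAG-13 libraries, and all were high at 96 h. Their 96 h calls therefore rest on groups where they were high, and the list counts and medians at 96 h include them. At 24 h Tbx20, a cardiac T-box factor, was higher (from 1.29 to 3.54 TPM), and Etv2 (from 3.55 to 1.20 TPM) and Kdr (from 0.787 to 0.139 TPM), of blood and vessel progenitors, were lower.

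In the shERV line, Tcf15 had means of 17.7 TPM in DMSO, 2.73 TPM in dTAG-13 and 18.4 TPM with Dox, and Sp5 of 6.72, 17.5 and 6.02 TPM. Both were called in dTAG-13 against DMSO and in the opposite direction with Dox against without (Tcf15 -2.51 ± 0.12 and 2.56 ± 0.12, Sp5 1.32 ± 0.06 and -1.46 ± 0.06, limma, adjusted p of 1.48e-08 to 3.4e-08), 2 comparisons that share the dTAG-13 libraries. In NPCs against tagged ESCs, 49.5% of all genes were higher and 39.5% lower. Of the listed genes, 4 signals were higher and 7 lower (of 11), 3 and 5 other streak factors (of 9), 5 and 1 paraxial genes (of 6) and 7 and 3 lateral, cardiac and blood genes (of 11). Among them, Dll1, which neural progenitors also use, was at 116 TPM and Otx2 at 545 TPM, while Tdgf1 and Nodal were at 0.0109 TPM and 0.

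The genes whose mean TPM over 7 groups (the time course, the parental line and NPCs) ran most like each member were found by Pearson's r of group means among 14300 genes, for the members with a group mean over 5 TPM. For T these were Smyd2 (r = 0.972), Il15ra (0.965) and A930024E05Rik (0.960). For Fgf8 they were AV356131 (0.991), Pisd-ps1 (0.990) and Ankrd39 (0.990), of which Pisd-ps1 ran from 23.3 TPM in DMSO to 80.7 TPM at 24 h and 51.6 TPM at 96 h. For Eomes they were 9330159F19Rik (0.999), Btbd3 (0.995) and Msra (0.994), and for Hand1 9930012K11Rik (0.998), Bcar1 (0.998) and Chst12 (0.996). With 7 points that share libraries, and 1 group far above the rest for Eomes (NPCs) and Hand1 (96 h), these values describe the shape of the profile only. None of the listed genes was itself a member.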

How the data were processed

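The deposited values were made by the authors on mm10. RNA-seq reads were trimmed with cutadapt 2.4, aligned with STAR 2.7.5a and quantified with StringTie 2.0.6, whose deposited tables give TPM and a coverage signal per gene, used here only for relative depth. For TT-SLAM-seq the authors kept reads with a T-to-C conversion and deposited FPKM. Peaks were called per library by the authors, and the deposited fold enrichment, a ratio to local background, was used as given.

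From these, differences were computed with limma 3.58.1 in R 4.3.3 on log2(value + 0.5), in separate fits of the time course (15 libraries), the shERV line (9), the tagged, parental and NPC groups (9), and both lines at 24 h (12). The minimum was 1 TPM (or 0.5 FPKM) in at least 3 libraries, which removed all members from the nascent fit. Nascent reads were recovered from FPKM, with 100% of low values whole within 0.01 of a read, and genes with a mean of at least 5 reads were tested with limma voom, chosen after seeing the data. Fold changes on the log2(value + 0.5) scale understate those of low genes. Fits were tested on simulated data. The members and lists were chosen with earlier results of these data known. Genes from the lists were named when adjusted p was under 0.05, the change over 2-fold and the compared groups did not overlap. At most the 4 largest changes per list and comparison were eligible. Alternatives were a pseudocount of 0.1 or 1, no filter or a stricter one, median centring, only the compared groups in a fit, a replicate block, leaving out each library, and for peaks a 5 kb window or equal numbers of peaks. The main fits did not pair same-numbered replicates. Promoters came from RefSeq (GRCm38.p6).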

Additional observations from a re-analysis of the deposited data

Results flagged for a closer look

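The change at 24 h of dTAG-13 differed between the shERV line and the tagged line for 4 of the 7 members tested, by a test of the difference of the changes (limma, log2 scale, shERV minus tagged). Of all genes, 26.2% were called higher and 25.2% lower in that test, a share near that of the members. The difference was -2.29 for Fgf8, -1.61 for Tbx6, 1.06 for Hand1 and 0.58 for Eomes, with adjusted p of 2.4e-06, 0.000442, 3.83e-06 and 0.0198. Tbx6 passed the minimum of this fit only through the tagged 24 h libraries, the group where it was high. The lines also differ in library type and in feeder marker sums (412 to 423 TPM in tagged DMSO, 1384 to 1467 TPM in shERV DMSO), and these cannot be told apart from the line.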

How the results depend on the processing

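Of 870 recomputed member differences, 852 kept their direction and side of the threshold, 9 were no longer called, 9 became called and 0 reversed. These are mRNA differences of members that passed the minimum of a main fit. The nascent differences are not among them, nor is the nascent Tbx6 call that was lost without certain single libraries. Of 249 recomputed counts of members called or with a peak, 19 moved by over 1.5 times. At 24 h the nascent count went from 0 to 2 with no filter and in voom with a mean of at least 5 reads, since the filter had removed the members, and was 1 to 2 there without each library. The mRNA count at 6 h went from 3 to 1 without DMSO replicate 1 or 6 h replicate 3 (range 1 to 3). At 96 h it went from 3 to 5 both with no filter and with median centring, which added lower calls for Mesp2 (-0.43) and Tbx6 (-0.46), and in NPCs from 5 to 8 with no filter. Median centring shifts every difference of a comparison by 1 value, -0.29 at 24 h, -0.28 at 96 h, -0.16 for dTAG-13 in the shERV line, -0.40 in NPCs, 0.19 in the parental line and 0.12 between the lines. It also added calls for Mixl1 at 24 h (-0.35) and between the lines (0.58), Hand1 at 6 h (-0.19) and Eomes in the parental line (0.36). Eomes lost its call in the comparison of the lines without DMSO replicate 2 of the tagged line (0.52) or dTAG-13 replicate 1 of the shERV line (0.51). With a 5 kb window, peaks were listed at 2 members for H3K27Ac in DMSO (against 1), 1 for H3K27Ac at 24 h (against 0) and 1 for RNAPII in DMSO (against 0). With equal numbers of peaks they were listed at 0 for H3K27Ac and 4 for MED23 in DMSO (against 7). Same-numbered replicates deviated together weakly at most (correlation over 0.1 in 9 of 30 pairs of the time course and 7 of 18 nascent pairs). Median correlations were 0.057 and 0.061, against -0.034 and -0.039 for pairs with other numbers. The replicate block changed 0 of 60 member calls in mRNA, and with the block in voom 2 members were called in nascent RNA at 24 h.

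Members at about 1 TPM or fewer than 20 nascent reads carry wide intervals, and the 24 h groups of both assays contain the shallowest library. Gsc, Mesp1 and Evx1 were under the minimum of every mRNA fit.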
